A study of Homo sapiens with 12 samples.

Results

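The SLC2A genes encode the GLUT family of sugar transporters, and 10 of its members were followed here in HepG2 cells, an established human liver cancer line, across low glucose, high glucose and valproic acid (VPA). The members were the genes SLC2A1, SLC2A2, SLC2A3, SLC2A4, SLC2A6, SLC2A8, SLC2A10, SLC2A12, SLC2A13 and SLC2A14, taken by gene symbol, and all 10 were found among the 16389 genes counted. The cells, obtained at passage 9, were grown for 48 h in medium with 5.5 mM glucose (LG) or with glucose raised to 20 mM (HG). In LGV and HGV the same media were followed by 1 mM VPA, an inhibitor of histone deacetylases, for a further 12 h. Each of the 4 groups held 3 libraries of poly(A)-selected RNA read from one end, and no group differed in genotype. The sources used here leave unsaid at which time untreated cells were collected, so VPA and time in culture cannot be told apart. The replicates were not labelled as separate cultures, so p-values measure only the spread between these libraries, which may be technical. HepG2 is a transformed line kept in culture, and the RNA was bulk RNA, in which fewer cells with a transcript and less transcript per cell cannot be told apart.

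GLUT proteins span the plasma membrane or an intracellular membrane and let sugars move down their gradient, with the exception of the SLC2A13 product, which carries myo-inositol together with protons. In the liver, GLUT2 (SLC2A2) is the main hepatocyte carrier and, having a low affinity for glucose, lets glucose both enter and leave the cell. GLUT1 (SLC2A1), which most cells use for basal uptake, is low in healthy hepatocytes and abundant in many tumour lines. GLUT3 (SLC2A3) is the high-affinity carrier of neurons, and GLUT4 (SLC2A4) is the insulin-responsive carrier of muscle and fat.

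Total counts per library ran from 29798442 to 45572694, and a count of 3 reads, used as a floor that covers counting error only, stood for 0.0713 to 0.112 CPM (reads relative to library size, scaled with TMM factors). All 10 hepatocyte markers examined, among them ALB, AFP, APOA1 and HNF4A, were counted, and their summed level was 62200 to 66700 CPM in LG, 61500 to 69400 in HG, 46300 to 48100 in LGV and 55600 to 69900 in HGV. In LGV against LG, 7 of these 10 markers were lower and none was higher, where 19.9% of all genes tested were lower and 21.7% higher. In HG against LG, 2 were higher and none lower (12% and 12.7% of all genes). In HGV against LGV, 4 were higher and none lower (21.2% and 19.5%). In HGV against HG, 1 was higher and 2 lower (25.8% and 20.2%). The summed level of the 2 endothelial markers counted (CDH5, VWF) was 2.21 to 4.85 CPM over the groups, that of 2 fibroblast markers (COL1A1, PDGFRB) 18.8 to 58.3 CPM and that of 3 cholangiocyte markers (KRT19, EPCAM, SOX9) 442 to 626 CPM. PTPRC, CD3E, PECAM1, KDR, COL1A2, DCN, LUM and KRT7 were not analysed here, and no part of the marker differences in the values below was tested. LG replicate 3 was as near to the other LG libraries as they were to each other but nearer to HG. As the root mean square difference over the 500 genes farthest apart in a pair of libraries, it lay 2.035 and 2.14 log2 units from LG replicates 1 and 2, which lay 2.063 from each other. It lay 2.104 to 2.161 from the HG libraries, against 2.582 to 2.676 for LG replicate 1 and 2.758 to 2.829 for LG replicate 2.

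Differences were tested over all genes that averaged 10 or more reads in the libraries compared, by edgeR's quasi-likelihood F test with Benjamini-Hochberg adjustment (FDR), and a gene was called at an FDR of 0.05 or less. In HG against LG, 3 of the 9 members tested were called, SLC2A2 higher and SLC2A1 and SLC2A8 lower, where 24.7% of all 15452 genes tested were called. SLC2A12 had too few reads to be tested there. Among all genes 12% were called higher and 12.7% lower. In HGV against LGV, 7 of 10 members were called, 5 higher (SLC2A2, SLC2A4, SLC2A10, SLC2A12, SLC2A14) and 2 lower (SLC2A1, SLC2A13), against 40.7% of all genes (21.2% higher, 19.5% lower). In LGV against LG, 7 of 10 were called, 4 higher (SLC2A3, SLC2A4, SLC2A12, SLC2A13) and 3 lower (SLC2A2, SLC2A8, SLC2A14), against 41.6% of all genes (21.7% higher, 19.9% lower). In HGV against HG, 9 of 10 were called, 7 higher (SLC2A1, SLC2A3, SLC2A4, SLC2A6, SLC2A10, SLC2A12, SLC2A13) and 2 lower (SLC2A2, SLC2A14), against 46.1% of all genes (25.8% higher, 20.2% lower). The share of members called in HG against LG was near that of all genes, and it was larger than that of all genes in the other contrasts. Without LG replicate 3, 6 members were called in HG against LG, and in LGV against LG 5 or 6 were called whichever library was left out. Without HGV replicate 1, HGV replicate 3 or LGV replicate 3, 4, 4 and 3 members were called in HGV against LGV. Over all genes the calls moved too when 1 library was left out, from 1933 to 5338 in HG against LG. They ran from 4942 to 6986 in LGV against LG and from 4516 to 7228 in HGV against LGV. The member counts of such fits are therefore not read as a trait of the members. SLC2A12, counted among the called members in LGV against LG and in HGV against HG, had enough reads there only through the libraries with VPA. With 10 members these shares are descriptions, and the contrasts share libraries.

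The median log2 difference over the members tested was -0.34 in HG against LG, 0.34 in HGV against LGV, 0.15 in LGV against LG and 0.43 in HGV against HG. Over all genes tested the medians were 0.01, 0.01, -0.01 and 0.03. The first member median was the value of SLC2A3, and it ran from -0.52 without LG replicate 2 to -0.11 without LG replicate 3 (-0.22 without HG replicate 3). In LGV against LG the member median was 0.04 without LG replicate 2 and 0.24 without LG replicate 1. With scaling to library size alone these 4 gene-wide medians moved to 0.11, 0.10, 0.16 and 0.15, so that changes scaled in that way are read relative to those values. The libraries of the 2 groups did not overlap for 4 members tested in HG against LG (SLC2A1, SLC2A2, SLC2A8 and SLC2A13), where 41.2% of all genes did not overlap. This held for 7 members in HGV against LGV (51.4% of all genes), for 6 in LGV against LG (50.5%) and for 9 in HGV against HG (54.6%). SLC2A12 was among the 6 and the 9, and it entered the member medians of LGV against LG and HGV against HG. It had enough reads for these only through the libraries with VPA, so it adds no support to them.

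**Figure D1:**
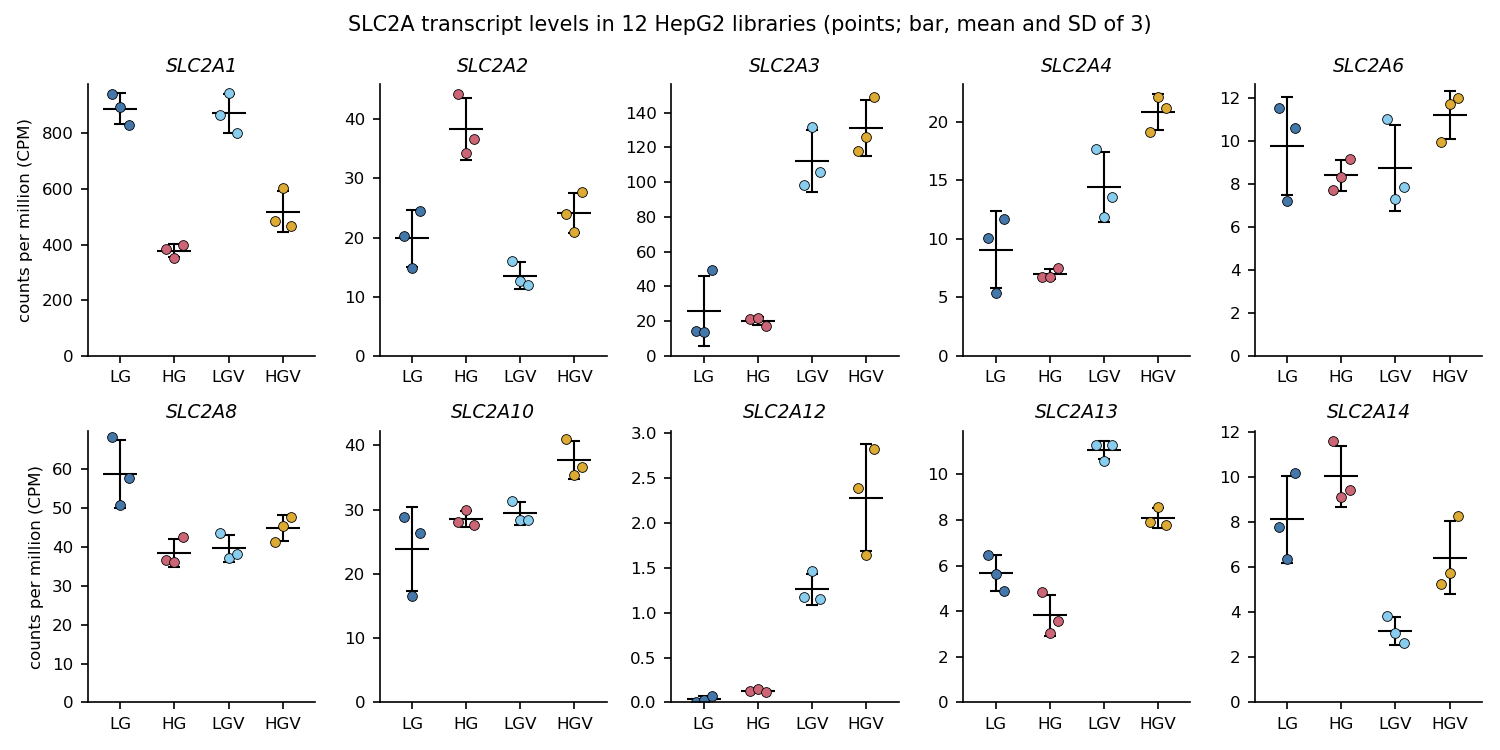
Level of each of the 10 SLC2A genes in CPM (vertical axes, 1 scale per gene) in the 3 libraries of LG, HG, LGV and HGV (points), with the mean and SD as bars. SLC2A1 was between 352 and 399 CPM in HG and at or above 803 CPM in every LG and LGV library, and SLC2A3 was at or above 98.5 CPM in every library with VPA and at or below 49.4 CPM without it.

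SLC2A1 (GLUT1, chr1:43391024-43424564 on GRCh37, minus strand) was the most abundant member. Its CPM was 942, 896 and 830 in LG, 385, 352 and 399 in HG, 866, 946 and 803 in LGV, and 485, 602 and 467 in HGV. No HG library reached the level of any LG library, and no HGV library reached that of any LGV library. SLC2A1 fell in HG against LG (log2 difference -1.21, SE 0.119, FDR 1.28e-06) and in HGV against LGV (-0.77, SE 0.141, FDR 0.000359). In LGV against LG the difference was -0.02 with a 95% interval from -0.28 to 0.25 and an FDR of 0.929, and its sign depended on the scaling (0.14 with library size alone, FDR 0.244). In 20 mM glucose SLC2A1 rose with VPA (0.45, SE 0.119, FDR 0.00781), and each HGV library lay above each HG library. Leaving out any 1 library kept the 3 calls, with values of -1.25 to -1.15, -0.89 to -0.70 and 0.33 to 0.52.

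SLC2A2 (GLUT2, chr3:170714136-170744532, minus strand) ran the other way with glucose. Its CPM was 20.3, 14.9 and 24.4 in LG, 44.2, 34.2 and 36.7 in HG, 16.1, 12.6 and 12.0 in LGV, and 23.9, 20.9 and 27.7 in HGV. Every high-glucose library exceeded every low-glucose library of the same VPA state. SLC2A2 rose in HG against LG (0.97, SE 0.17, FDR 0.00049) and in HGV against LGV (0.81, SE 0.151, FDR 0.00041), and each value kept its call without any 1 library (0.82 to 1.15 and 0.70 to 0.95). With VPA it fell in 20 mM glucose (-0.67, SE 0.138, FDR 0.00166), also without any 1 library. In 5.5 mM glucose it fell by 0.54 on the log2 scale (FDR 0.0334), but the lowest LG library lay below the highest LGV library. That call was lost without LG replicate 1 (FDR 0.0994), LG replicate 3 (FDR 0.156), LGV replicate 2 (FDR 0.104) or LGV replicate 3 (FDR 0.158), and with library size alone (-0.38, FDR 0.205).

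The opposite directions of SLC2A1 and SLC2A2 in high glucose changed the balance of these 2 transcripts. Per length of exon, SLC2A1 was 23.9, 31.1 and 17.6 times SLC2A2 in the 3 LG libraries and 4.5, 5.31 and 5.61 times in the HG libraries. With VPA the ratio was 27.7, 38.6 and 34.5 in LGV and 10.4, 14.9 and 8.69 in HGV. The ratios of high-glucose and low-glucose libraries did not overlap in either VPA state. The size of these ratios depends on the lengths used, 6614 bases of exon for SLC2A1 and 3411 for SLC2A2. Their longest transcripts had 3384 and 3181 bases.

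The bases just before the start of these 2 genes are shown because the genes moved in opposite directions with glucose. They come from RefSeq windows of 250 bases before each start, made on GRCh38.p14 and each found once on GRCh37, with the bases already inside the annotated gene left out. SLC2A1 covers chr1:43424565-43424789 (225 bases, minus strand) and SLC2A2 covers chr3:170744533-170744759 (227 bases, minus strand), both on GRCh37 and both 5′ to 3′. Capitals mark the motifs found by a search of both strands for the GC box GGGCGG, the CCAAT box, the TATA box as TATAAA, the E-box CACGTG, the hypoxia response core ACGTG, which every such E-box also holds, the ER stress response element, which begins with a CCAAT box, and the carbohydrate response element as a pair of E-boxes.
SLC2A1: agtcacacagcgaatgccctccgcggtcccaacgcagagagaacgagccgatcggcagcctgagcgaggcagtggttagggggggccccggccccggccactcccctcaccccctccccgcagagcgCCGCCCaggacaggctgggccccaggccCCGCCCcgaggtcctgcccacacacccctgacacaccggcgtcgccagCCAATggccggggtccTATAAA
SLC2A2: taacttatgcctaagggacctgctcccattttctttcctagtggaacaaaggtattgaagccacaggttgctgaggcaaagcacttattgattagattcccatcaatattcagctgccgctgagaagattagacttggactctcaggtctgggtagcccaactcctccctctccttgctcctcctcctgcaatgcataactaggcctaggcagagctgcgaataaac
The full 250-base window of SLC2A1 was 72.4% G and C, and the stretch shown held 2 GC boxes, both as CCGCCC on the strand shown, beginning 123 and 95 bases before the RefSeq start, a CCAAT box at 47 bases and a TATAAA at 31 bases. The full window of SLC2A2 was 48.8% G and C and held none of the 7 motifs. Over 35116 RefSeq windows of 250 bases, the median share of G and C was 58.0%, a GC box was found in 42.6%, CCAAT in 32.0%, ACGTG in 18.5%, TATAAA in 10.7%, CACGTG in 6.3% and the ER stress response element in 0.1%. The paired E-box was found in 1 window. Of the 8 members with a RefSeq window, 6 held a GC box, 4 CCAAT, 3 ACGTG, 1 TATAAA and 1 CACGTG. A match of letters is a description of the sequence only.

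SLC2A3 (GLUT3, chr12:8071826-8171603, minus strand) moved mainly with VPA. Its CPM was 14.5, 13.6 and 49.4 in LG, 21.1, 22 and 17.5 in HG, 98.5, 132 and 106 in LGV, and 118, 126 and 149 in HGV. The lowest library with VPA was 98.5 CPM and the highest without it was LG replicate 3. SLC2A3 rose with VPA in 5.5 mM glucose (2.12, SE 0.366, FDR 0.00032) and in 20 mM glucose (2.70, SE 0.132, FDR 2.88e-08), folds of 4.34 and 6.49. Without LG replicate 3 the first of these was 3.02 (FDR 2.26e-11). Between glucose media the difference with VPA was 0.21 (95% interval -0.08 to 0.49, FDR 0.238). In HG against LG it was -0.34 (-1.02 to 0.33, FDR 0.464) and turned on 1 library, since without LG replicate 3 it was 0.55 and called (FDR 0.0164).

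SLC2A14 (GLUT14, chr12:7965108-8043744, minus strand), a close copy of SLC2A3 that lies beside it on the chromosome, moved against it with VPA. Its CPM was 7.78, 6.39 and 10.2 in LG, 11.6, 9.12 and 9.41 in HG, 3.84, 3.09 and 2.62 in LGV, and 5.24, 5.75 and 8.26 in HGV. SLC2A14 fell with VPA in 5.5 mM glucose (-1.34, SE 0.229, FDR 0.000279) and in 20 mM glucose (-0.65, SE 0.185, FDR 0.0124), and in both the groups did not overlap. The second call was lost without HGV replicate 1 (-0.52, FDR 0.0603). SLC2A14 was higher in HGV than in LGV (1.00, SE 0.217, FDR 0.00146), and all 6 fits with 1 library left out called it. In HG against LG the value was 0.33 (FDR 0.225), and without LG replicate 3 it was 0.53 (FDR 0.0344). In CPM, SLC2A3 was 1.81 to 4.84 times SLC2A14 in the 6 libraries without VPA and 18.1 to 42.9 times in the 6 with it.

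Reads of the 2 copies can be confused, so part of their coding sequence is shown to let the distance between them be seen. Aligned over 1488 bases, the coding sequences of SLC2A3 and SLC2A14 were identical at 1440 bases (96.8%) and differed at 48, and 389 of the 1439 stretches of 50 bases, the read length, held no difference (27.0%). Stretches of 120 bases that lay without gaps inside 1 coding exon of both genes were compared. That with most differences lay at chr12:8083078-8083197 in SLC2A3 and chr12:7981302-7981421 in SLC2A14, both on the minus strand of GRCh37. It is given with the 10 differing bases in capitals.
SLC2A3: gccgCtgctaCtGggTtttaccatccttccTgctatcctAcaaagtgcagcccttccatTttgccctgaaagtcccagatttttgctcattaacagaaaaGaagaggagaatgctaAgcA
SLC2A14: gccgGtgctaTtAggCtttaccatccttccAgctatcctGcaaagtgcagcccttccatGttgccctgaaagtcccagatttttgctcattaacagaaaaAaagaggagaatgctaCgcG
Of all 50-base windows in the exons, 21.07% of those of SLC2A3 and 21.51% of those of SLC2A14 also occurred elsewhere in the genome. The share was 3.05% for SLC2A4, 1.75% for SLC2A6, 0.59% for SLC2A13 and 0.18% for SLC2A10, and no such window was found for SLC2A1, SLC2A2, SLC2A8 or SLC2A12. The authors counted only reads with a mapping quality of at least 10, a limit that reads fitting both copies equally well do not normally pass, so such reads would be left out of both genes rather than divided. How this changed the values of SLC2A3 and SLC2A14 was not tested.

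SLC2A4 (GLUT4, chr17:7185037-7191576, plus strand) was a low transcript that was higher with VPA in 20 mM glucose. Its CPM was 10.1, 5.39 and 11.7 in LG, 6.75, 6.70 and 7.48 in HG, 17.7, 11.9 and 13.6 in LGV, and 19.1, 22.1 and 21.2 in HGV. The lowest HGV library, at 19.1 CPM, lay far above the highest HG library, at 7.48 CPM. SLC2A4 rose in HGV against HG (1.58, SE 0.127, FDR 9.53e-07), and this call stood without any 1 library. It also rose in LGV against LG (0.68, SE 0.246, FDR 0.0382), where the groups differed by as little as 11.7 against 11.9 CPM. That call was lost without LG replicate 1 (FDR 0.0852), LG replicate 2 (FDR 0.0949), LGV replicate 1 (FDR 0.15) or LGV replicate 3 (FDR 0.0672). SLC2A4 was higher in HGV than in LGV (0.52, SE 0.153, FDR 0.0117), a call lost without LGV replicate 2 (FDR 0.0765) or LGV replicate 3 (FDR 0.0602). In HG against LG the value was -0.35 (95% interval -0.83 to 0.12, FDR 0.27), and -0.60 without LG replicate 2 (FDR 0.0242).

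**Figure D2:**
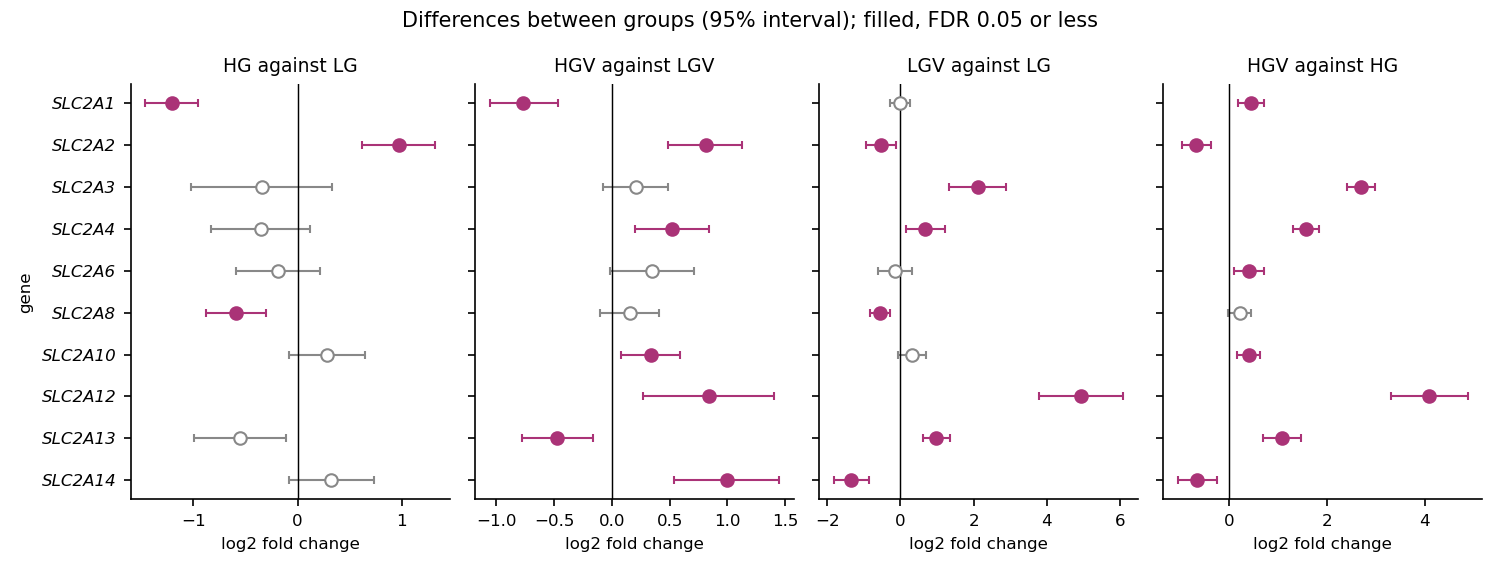
Log2 difference of each SLC2A gene (horizontal axes) in the 4 comparisons, with 95% intervals, where filled points had an FDR of 0.05 or less. SLC2A1 and SLC2A2 lay on opposite sides of 0 in both comparisons of glucose, and SLC2A3 and SLC2A14 on opposite sides in both comparisons of VPA.

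The remaining members belong to groups of the family found largely on intracellular membranes or in few tissues. SLC2A8 (GLUT8, chr9:130159417-130170703, plus strand), a transporter of internal membranes, was at 68.2, 50.8 and 57.7 CPM in LG, 36.6, 36.2 and 42.6 in HG, 43.7, 37.1 and 38.2 in LGV, and 41.2, 45.5 and 47.8 in HGV. The 3 LG libraries lay above the other 9. SLC2A8 fell with glucose in the absence of VPA (-0.59, SE 0.138, FDR 0.00475) and fell with VPA in 5.5 mM glucose (-0.56, SE 0.132, FDR 0.00348). The first call was lost without LG replicate 1 (-0.46, FDR 0.0545). In HGV against LGV the value was 0.16 (FDR 0.314) and in HGV against HG it was 0.22 (FDR 0.129), called with library size alone (0.34, FDR 0.022).

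SLC2A10 (GLUT10, chr20:45338288-45364986, plus strand), the gene altered in arterial tortuosity syndrome, had 28.8, 16.5 and 26.3 CPM in LG, 28.0, 30.0 and 27.6 in HG, 31.4, 28.4 and 28.4 in LGV, and 41.0, 35.4 and 36.6 in HGV. The 3 HGV libraries exceeded the other 9. SLC2A10 was higher in HGV than in HG (0.40, SE 0.109, FDR 0.00944) and than in LGV (0.34, SE 0.121, FDR 0.0327). The first call was lost without HG replicate 3 (FDR 0.0565). The second was lost without HGV replicate 1 (FDR 0.136), HGV replicate 3 (FDR 0.0564), LGV replicate 2 (FDR 0.117) or LGV replicate 3 (FDR 0.142), and in a fit of all 12 libraries (FDR 0.0731). In HG against LG its value was 0.28 (FDR 0.248), and in LGV against LG 0.31 (FDR 0.171).

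SLC2A6 (GLUT6, chr9:136336216-136344249, minus strand), a transporter of lysosomal membranes, varied little. Its CPM was 11.5, 7.19 and 10.6 in LG, 7.73, 8.31 and 9.16 in HG, 11.0, 7.31 and 7.85 in LGV, and 9.93, 11.7 and 12.0 in HGV. SLC2A6 was called only in HGV against HG (0.42, SE 0.139, FDR 0.027), and the call was lost without HG replicate 1 (FDR 0.09), HG replicate 2 (FDR 0.0713) or HGV replicate 3 (FDR 0.0877), and in a fit of all 12 libraries (FDR 0.0808). In HGV against LGV it was 0.34 (FDR 0.122), and 0.55 without LGV replicate 1 (FDR 0.0134).

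SLC2A13 (the proton myo-inositol symporter HMIT, chr12:40148827-40499891, minus strand) moved with both agents and in opposite directions. Its CPM was 6.47, 5.64 and 4.90 in LG, 4.82, 3.05 and 3.58 in HG, 11.3, 10.6 and 11.3 in LGV, and 7.91, 8.56 and 7.76 in HGV. All 6 libraries with VPA lay above all 6 without it. SLC2A13 rose with VPA in 5.5 mM glucose (0.98, SE 0.172, FDR 0.000348) and in 20 mM glucose (1.08, SE 0.18, FDR 0.000347), and neither call was lost without any 1 library. It was lower in HGV than in LGV (-0.47, SE 0.149, FDR 0.017). That call was lost without HGV replicate 1 (FDR 0.0583), HGV replicate 3 (FDR 0.0596) or LGV replicate 3 (FDR 0.075), and with library size alone (-0.39, FDR 0.0621). In HG against LG its groups did not overlap either, but the value of -0.55 had an FDR of 0.0648, which passed the threshold without LG replicate 3 (0.0265), without HG replicate 1 (0.04) and in a fit of all 12 libraries (0.0338).

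SLC2A12 (GLUT12, chr6:134308719-134373762, minus strand), an insulin-responsive carrier in some tissues, was near absence without VPA. It had 0, 1 and 3 reads in the LG libraries, all at or under the floor, and 4, 5 and 4 in HG. With VPA it had 39, 45 and 43 reads in LGV (1.17, 1.46 and 1.15 CPM) and 78, 69 and 96 in HGV (2.39, 1.64 and 2.82 CPM). As a ratio of summed reads scaled to library size with TMM factors, SLC2A12 was 33.1 times higher in LGV than in LG (95% counting interval 12.6 to 123). It was 17.3 times higher in HGV than in HG (9.94 to 33). Both contrasts were called by edgeR (FDR 5.16e-06 and 1.94e-06). SLC2A12 reached the mean of 10 reads needed for these tests only through the libraries with VPA, so the calls add no support to the counts. SLC2A12 was also higher in HGV than in LGV (0.84, SE 0.269, FDR 0.0188), but not past the threshold without HGV replicate 1 (FDR 0.0581), HGV replicate 3 (FDR 0.108) or LGV replicate 3 (FDR 0.0798). In HG and LG its 13 and 4 reads gave a ratio of 3.42 (1.06 to 14.4), with no test. These counting intervals cover counting error only and leave out the spread between libraries. On the other strand the exons of TBPL1 cover 2852 bases, or 51.2%, of those of SLC2A12. The libraries were prepared with a directional kit, but the setting used for strand in counting was not stated, and reads of the 2 genes cannot be told apart if strand was not used. TBPL1 had 15.7 to 19.9 CPM in LG, 14 to 17.3 in HG, 34.5 to 38.8 in LGV and 24.4 to 27.7 in HGV. Like SLC2A12 it was higher with VPA in both media, and it was highest in LGV while SLC2A12 was highest in HGV. Whether reads of TBPL1 entered the counts of SLC2A12 was not tested.

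Whether the response to VPA differed between the 2 glucose media was tested as an interaction over all 12 libraries. No member of the 10 passed an FDR of 0.05 in edgeR, where 7 of 16389 genes (0.0427%) did (0.0244% with a positive and 0.0183% with a negative value). At an unadjusted p under 0.05 in edgeR there were 5 members and 11.3% of all genes, and the Wald test of DESeq2 called 1 member and 0.988% of all genes. The value was positive for 8 of 10 members and 54.3% of all genes, with a median of 0.53 over the members and 0.04 over all genes. A positive value means a higher log2 difference with VPA in 20 mM glucose, which for SLC2A14 was a smaller fall. SLC2A8 had the smallest p among the members (difference of log2 differences 0.79, 95% interval 0.41 to 1.17, FDR 0.0754 in edgeR and 0.0176 in DESeq2). SLC2A4 followed (0.91, 0.28 to 1.53, FDR 0.227), then SLC2A1 (0.48, 0.12 to 0.84, FDR 0.272), SLC2A14 (0.71, 0.08 to 1.34, FDR 0.373) and SLC2A6 (0.58, 0.02 to 1.13, FDR 0.425). Without LG replicate 2, SLC2A8 (0.85, FDR 0.0239) and SLC2A4 (1.15, FDR 0.0221) passed the threshold in edgeR. For SLC2A3 the value was 0.59 (95% interval -0.31 to 1.49) and turned to -0.30 without LG replicate 3. The intervals of SLC2A2 (-0.63 to 0.39), SLC2A10 (-0.36 to 0.56) and SLC2A13 (-0.41 to 0.64) spanned 0. SLC2A12 had the most negative value, -0.84 (95% interval -2.42 to 0.75), with at most 5 reads in each library without VPA.

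**Figure D3:**
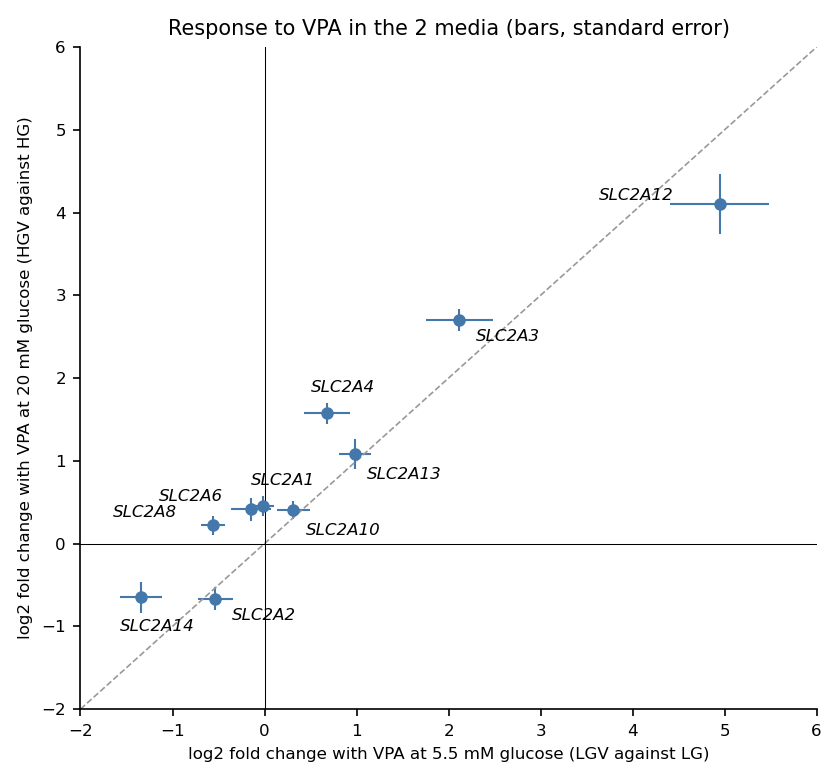
Log2 difference with VPA of each SLC2A gene in 5.5 mM glucose (LGV against LG, horizontal axis) and in 20 mM glucose (HGV against HG, vertical axis), with standard errors as bars and the line of equal response dashed. SLC2A12 and SLC2A3 lay farthest from 0 on both axes, and SLC2A8 had values of -0.56 and 0.22.

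Levels of different genes were compared as CPM per kb of exon, using the union of annotated exons. The order of genes depends on this length, which was 3411 bases for SLC2A2 and 3928 for SLC2A8. Their longest transcripts had 3181 and 2145 bases. In each of the 4 groups SLC2A1 was highest and SLC2A12 lowest. In LG, SLC2A1 had 134 ± 8.55 CPM per kb (SD, n = 3), SLC2A8 had 15 ± 2.23, and SLC2A2 with 5.82 ± 1.4, SLC2A10 with 4.94 ± 1.34, SLC2A3 with 3.57 ± 2.82 (1.94 without LG replicate 3), SLC2A6 with 2.77 ± 0.647 and SLC2A4 with 2.27 ± 0.819 followed, each within the spread of its neighbour. In HG, SLC2A1 had 57.3 ± 3.62 CPM per kb, and SLC2A2 with 11.2 ± 1.52 and SLC2A8 with 9.79 ± 0.904 came next, within each other's spread, ahead of SLC2A10 with 5.89 ± 0.274. In LGV, SLC2A3 was second with 15.5 ± 2.46 CPM per kb, after SLC2A1 with 132 ± 10.8 and before SLC2A8 with 10.1 ± 0.900 and SLC2A10 with 6.08 ± 0.357. In HGV the same 4 genes led, SLC2A1 with 78.3 ± 11.1, SLC2A3 with 18.1 ± 2.25, SLC2A8 with 11.4 ± 0.847 and SLC2A10 with 7.78 ± 0.613 CPM per kb, the last within the spread of SLC2A2 with 7.09 ± 1.00.

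The summed level of the 10 members was 171 ± 9.60 CPM per kb in LG, 93.3 ± 4.83 in HG, 175 ± 12.3 in LGV and 133 ± 9.87 in HGV (SD, n = 3). SLC2A1 made up 78.7% ± 4.14 of this sum in LG, 61.4% ± 0.979 in HG, 75.1% ± 1.14 in LGV and 58.5% ± 4.47 in HGV. SLC2A2 made up 3.40% in LG and 12.0% in HG, and 2.28% in LGV and 5.35% in HGV. SLC2A3 went from 2.11% ± 1.69 in LG (1.13% without LG replicate 3) and 3.00% ± 0.478 in HG to 8.80% ± 1.04 in LGV and 13.6% ± 1.97 in HGV. Per length, SLC2A1 was 71.0, 72.2 and 18.4 times SLC2A3 in LG, the last in LG replicate 3, and 20.0, 17.6 and 25.0 times in HG. The ratio was 7.83 to 9.64 in LGV and 3.43 to 5.26 in HGV. These shares and ratios depend on the length assumed for each gene. SLC2A1 was at 83.1% in LG when the longest transcript was used and at 85% with the longest coding length.

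**Figure D4:**
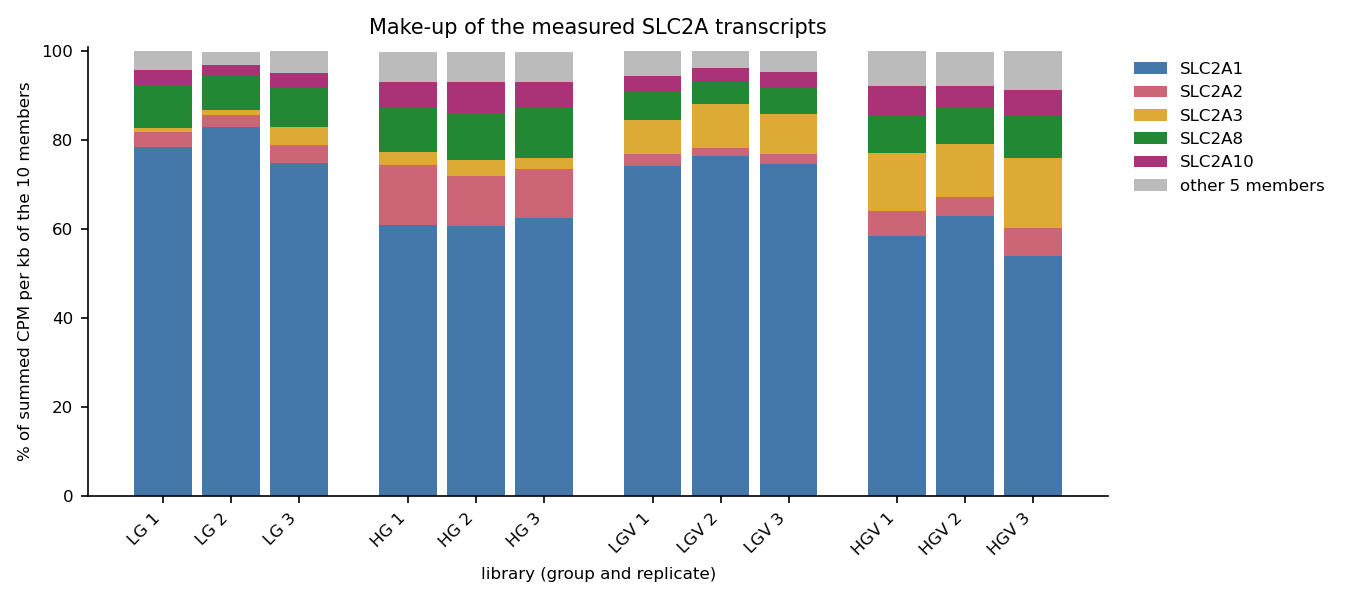
Share of each SLC2A gene in the summed CPM per kb of exon of the 10 members (vertical axis, %) in each of the 12 libraries (horizontal axis), with 5 genes in colour and the other 5 joined in grey. SLC2A1 held the largest share in every library, the share of SLC2A2 was largest in HG, and that of SLC2A3 was larger with VPA than without it.

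Other genes had profiles close to those of 3 members. Likeness was measured as the root mean square difference, over the 12 libraries, of log2 CPM centred on each gene's mean, among 11898 genes. The 3 nearest to SLC2A1, whose own spread was 0.532 log2 units, were GLRX2, a mitochondrial glutaredoxin (0.091), AZGP1, a secreted zinc-binding glycoprotein (0.111), and C17orf96 (0.121). AZGP1 had 406 ± 51.8 CPM in LG, 192 ± 10.9 in HG, 382 ± 25.4 in LGV and 258 ± 34.9 in HGV (SD, n = 3). Nearest to SLC2A2 (spread 0.581) were IPP (0.138), the flippase gene ATP9A (0.140) and FTCD, an enzyme of histidine breakdown in liver (0.148). FTCD had 47.6 ± 13.1 CPM in LG, 87.2 ± 2.00 in HG, 33.9 ± 2.82 in LGV and 64.7 ± 8.12 in HGV. SLC2A3, with a larger spread of its own (1.349), had larger distances to its nearest genes, KREMEN2, a receptor of Wnt inhibitors (0.315), CRIP2 (0.410) and DPYSL4 (0.431). KREMEN2 had 1.66 ± 0.643 CPM in LG, 1.83 ± 0.228 in HG, 8.75 ± 0.200 in LGV and 9.75 ± 0.578 in HGV.

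The family has other genes, of which SLC2A9, a urate carrier, and SLC2A11 were counted. Neither was called in HG against LG. SLC2A9 was lower in LGV than in LG (-0.75, FDR 0.00044) and higher in HGV than in LGV (0.37, FDR 0.0259), and SLC2A11 was lower with VPA in 5.5 mM (-0.90, FDR 0.000637) and 20 mM glucose (-0.57, FDR 0.00427). Of 6 sodium-coupled and other sugar transporters, 1 of 5 tested was higher and none lower in HG against LG, 3 of 6 higher and none lower in HGV against LGV, 2 higher and 1 lower in LGV against LG, and 4 higher and 1 lower in HGV against HG, beside called shares over all genes of 24.7%, 40.7%, 41.6% and 46.1%. Among them, SLC5A9, a sodium-coupled carrier of mannose, was higher in HG (1.03, FDR 0.00227) and lower with VPA in both media (-1.39 and -1.89, FDR 0.000547 and 9.02e-07). SLC45A3 rose with VPA in both media (1.97 and 1.93, FDR 3.54e-07 and 6.81e-07). SLC45A1 had 5 reads over the LG libraries and 3 over HG, and 118 in LGV and 211 in HGV. It was counted among the higher genes in LGV against LG and in HGV against HG. There it had enough reads to be tested only through the libraries with VPA, so these calls add no support to the counts.

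Among 8 counted genes of glucose phosphorylation and release, the steps that follow transport, 2 were higher and 3 lower in HG against LG, 4 higher and 2 lower in HGV against LGV, 2 higher and 2 lower in LGV against LG, and 3 higher and 1 lower in HGV against HG. The 5 and 6 called in the glucose comparisons stood beside shares of 24.7% and 40.7% over all genes, and the 4 called in each VPA comparison beside 41.6% and 46.1%. GCKR, which encodes a regulatory protein of liver sugar metabolism, and G6PC, which encodes the enzyme that frees glucose for export, were higher in HG than in LG (1.24 and 1.18, FDR 0.000307 and 0.000304), and the hexokinase-like HKDC1 was lower (-1.47, FDR 2.86e-05). Hexokinase 2 (HK2) was lower in HG than in LG as well (-0.46, FDR 0.0188), and in HGV against LGV its value was -0.10 (FDR 0.577). Hexokinase 1 (HK1) rose with VPA from 6.18 ± 0.410 CPM in LG to 57.0 ± 8.19 in LGV, and from 2.83 ± 0.431 in HG to 41.4 ± 4.73 in HGV (SD, n = 3), log2 differences of 3.21 and 3.86 (FDR 4.06e-09 and 8.58e-09).

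Of 21 genes that act on the trafficking or endocytosis of transporters, 2 were higher and 2 lower in HG against LG, 2 higher and 5 lower in HGV against LGV, 4 higher and 4 lower in LGV against LG, and 5 higher and 3 lower in HGV against HG. These 4, 7, 8 and 8 called genes stood beside shares of 24.7%, 40.7%, 41.6% and 46.1% over all genes. With 21 genes, the shares were too near these to be read as a result about the list. The 2 that rose with glucose were the arrestin-related genes TXNIP and ARRDC4, whose products promote the internalisation of GLUT1. TXNIP was at 6.37 ± 0.192 CPM in LG and 258 ± 142 in HG (SD, n = 3, log2 difference 5.37, FDR 6.81e-09). With VPA it was at 9.78 ± 0.894 in LGV and 350 ± 10.4 in HGV (5.15, FDR 2.83e-14). ARRDC4 rose with glucose (3.22 without VPA, FDR 1.36e-06, and 2.83 with it, FDR 9.93e-10) and with VPA (2.42 in 5.5 mM, FDR 1.27e-06, and 2.06 in 20 mM glucose, FDR 6.97e-05). ASPSCR1, whose product tethers stores of GLUT4, fell with VPA in both media (-1.75 and -1.86, FDR 8.18e-08 and 1.68e-07). TBC1D4, a Rab GTPase-activating protein of GLUT4 traffic, was lower in high glucose (-0.64 without VPA and -0.80 with it, FDR 0.00197 and 0.000268).

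Of 23 transcription factors known to act at SLC2A promoters, 1 was higher and 4 lower in HG against LG, 2 higher and 6 lower in HGV against LGV, 1 higher and 11 lower in LGV against LG, and 2 higher and 13 lower in HGV against HG. Over all genes, 12%, 21.2%, 21.7% and 25.8% were higher and 12.7%, 19.5%, 19.9% and 20.2% lower in these comparisons. The median log2 difference over these factors was -0.10 in HG against LG, -0.18 in HGV against LGV, -0.35 in LGV against LG and -0.39 in HGV against HG. SLC2A4RG, an enhancer factor of the SLC2A4 gene, was higher in high glucose (0.41 without VPA and 0.38 with it, FDR 0.0234 and 0.0146) and lower with VPA (-0.93 in both media, FDR 2.8e-05 and 1.85e-05). KLF15 was lower in HG than in LG (-0.90, FDR 0.000333), and in HGV against LGV its value was -0.12 (FDR 0.448).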

How the data were processed

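HepG2 RNA was poly(A)-selected and sequenced as single 50-base reads. The authors trimmed the reads, aligned them with STAR to GRCh37 (Ensembl annotation), counted reads per gene with featureCounts (mapping quality of at least 10) and deposited raw counts without normalization, after leaving out genes that averaged fewer than 10 reads per sample. Base calls came from bcl2fastq 2.17.1.14, per the submitters' processing notes. Whether counting used strand is not stated in the sources used here.

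Counts were analysed with edgeR 4.0.16 in R 4.3.3 (TMM factors, quasi-likelihood F test fitted to the libraries of each comparison, mean count of at least 10, FDR of 0.05 or less over all genes tested). The interaction used all 12 libraries. The code was tested on simulated data. CPM used TMM factors of all 12 libraries. Alternatives were DESeq2 1.42.0 (size factors, Wald test), library size only, other low-count filters, replicate block, a fit of 12 libraries, leaving out each library, and other gene lengths. Positions, exon lengths, overlaps and window uniqueness came from the GRCh37 genome with GENCODE annotation later than the authors', which placed 15975 of 16389 genes (97.47%) by identifier. Promoter windows came from RefSeq, and SLC2A3 and SLC2A4 had no entry. Python 3.11.15, Biopython 1.88 and matplotlib 3.10.9 were used.

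Named genes were the 10 members, the 3 genes nearest in pattern to SLC2A1, SLC2A2 and SLC2A3 (mean of at least 1 log2 CPM), and from each further list up to 3 called genes per comparison by size of change, of which examples are given, plus TXNIP, ARRDC4, HK2 and SLC2A4RG. A few listed genes are not reported here. The counts of SLC2A5, SLC2A7 and other listed genes outside the table were not analysed here. Members and lists were chosen with earlier results of these data known, and TBPL1 was named for its overlap. Replicate numbers are in the labels, but nothing states that they mark shared cultures, so they were used as a block only in an alternative.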

Additional observations from a re-analysis of the deposited data

How the results depend on the processing

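Apart from leave-one-out fits, 323 member values kept their direction and their side of the threshold, 3 passed it, 4 lost it and 3 changed sign. These were values near 0 in LGV against LG, 0.14 for SLC2A1 and 0.02 for SLC2A6 with library size only, and 0 for SLC2A1 with a filter of 1 CPM, none past the threshold. The interaction called 1 gene with library size only, 162 with DESeq2 (1 a member, SLC2A8) and 13 with the replicate block, against 7. Leaving out 1 library gave 1933 to 5338 genes in HG against LG (1933 without LG replicate 1, 2076 without HG replicate 3). The members called there were 2 to 6 (6 without LG replicate 3). In HGV against LGV it gave 4516 to 7228 genes and 3 to 8 members (4 without HGV replicate 1 or 3, 3 without LGV replicate 3). In the interaction it gave 1 to 217 genes and 0 to 2 members (2 without LG replicate 2). The genes there were 217 without LG replicate 2, 67 without LG replicate 3, 22 without LGV replicate 1, and 1 or 2 with any of the other 9 left out. Signs changed in such fits for SLC2A3 in HG against LG (-0.63 to 0.55), SLC2A1 in LGV against LG (-0.08 to 0.05), and in the interaction for SLC2A2 (-0.30 to 0.02), SLC2A3 (-0.30 to 0.87), SLC2A10 (-0.08 to 0.27) and SLC2A13 (-0.04 to 0.27). The cause was not tested, beyond 1 library fewer in those fits. Same-numbered libraries deviated together in some pairs only (mean correlation -0.056 in HG against LG, 0.077 in HGV against LGV, 0.015 in LGV against LG and 0.079 in HGV against HG, over 0.1 in 0, 1, 1 and 2 of 3 pairs). For libraries with different numbers the means were 0.028, -0.038, -0.008 and -0.042. The highest of those pairs, LGV replicate 1 with LG replicate 3, reached 0.38, against 0.256 for the highest same-numbered pair. The numbers were not taken as pairing, which 3 libraries per group cannot exclude. With the block, 3351, 7308, 6971 and 8229 genes were called in these comparisons and no member's call changed. SLC2A1 made up 69.6% in HG, 79.9% in LGV and 65.6% in HGV of the summed level with the longest transcript, and 71.8%, 79.4% and 64.9% with the coding length, 62.6% in HG without SLC2A14. SLC2A3 made up 3.81% in HG, 10.1% in LGV and 16.4% in HGV with the coding length. Depth limits SLC2A12 in the libraries without VPA, where 5 reads or fewer were counted in each.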
